A study of Mus musculus with 120 samples.

Results

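Cyp4a10, Cyp4a14, Acot1 and Acot3, liver genes of fatty acid handling, were followed through 5 RNA populations of mouse liver, and they are 4 of the 12252 genes measured. They were selected on their readout, as targets of the nuclear receptor PPAR alpha whose levels were much higher in livers without cryptochromes, so their difference between genotypes is described here with values and carries no test. The livers came from Cry1-/- Cry2-/- mice (CryKO), which lack both cryptochromes in every cell, and from C57BL/6 mice (WT). In each genotype 2 animals were sampled at each of 6 times of day, ZT0, ZT4, ZT8, ZT12, ZT16 and ZT20, which gave 12 livers per genotype. ZT0 is lights on and ZT12 is lights off, and in the WT mice they were also the start of the phase without food and of feeding. The WT mice were males of 8 to 12 weeks that had food only at night for the last 3 days, whereas the age and sex of the CryKO mice are not given in the sources used here. The methods describe this feeding for WT mice only, so whether the CryKO mice were fed in the same way is not known here. Each liver gave ribosome-depleted total RNA of the nucleus (NT), the cytoplasm (CT) and the unfractionated tissue (UT), and polyadenylated RNA of the nucleus (NA) and the cytoplasm (CA), 120 libraries in all. The last letter names what was counted, pre-mRNA with its introns (I) or spliced mRNA (E), so that NTI is nuclear pre-mRNA, NAE nuclear polyadenylated mRNA, CAE its cytoplasmic counterpart and UTE the mRNA of the whole tissue.

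Cyp4a10 and Cyp4a14 are cytochrome P450 enzymes that hydroxylate fatty acids at the omega carbon, the first step of their conversion into dicarboxylic acids. Acot1, in the cytosol, and Acot3, in peroxisomes, are thioesterases that release free fatty acids from acyl-CoA. In rodent liver all of them are classical targets of PPAR alpha, a receptor that binds DNA as a dimer with the retinoid X receptor, is activated by fatty acids and is known for the fasting response. Cry1 and Cry2 are the repressors of the circadian clock and act on CLOCK and BMAL1, and cryptochromes are also known to bind several nuclear receptors.

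The members form 2 pairs of neighbours in the genome (GRCm38). Cyp4a14 lies at chr4:115486200-115496142 on the minus strand with 12 exons, and Cyp4a10 at chr4:115518264-115533649 on the plus strand with 13 exons, 22121 bases further on. Acot1 lies at chr12:84009490-84018371 and Acot3 at chr12:84052144-84060402, both on the plus strand and 33772 bases apart, with their relative Acot4 between them. The bases before the start of transcription are shown for the thioesterases, because Acot3 and Acot4 varied together between livers (below) and because PPAR alpha binds direct repeats of AGGTCA spaced by 1 base. They are the 250 bases before the RefSeq start on the plus strand of GRCm38.p6, chr12:84009252-84009501 for Acot1, chr12:84051894-84052143 for Acot3 and chr12:84038129-84038378 for Acot4, with capitals where the direct repeat AGGTCANAGGTCA was matched with up to 2 mismatches.
Acot1: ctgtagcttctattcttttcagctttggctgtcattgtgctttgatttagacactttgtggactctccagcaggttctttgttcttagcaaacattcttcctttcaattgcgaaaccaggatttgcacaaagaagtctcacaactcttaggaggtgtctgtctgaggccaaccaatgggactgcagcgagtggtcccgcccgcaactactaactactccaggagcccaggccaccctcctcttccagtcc
Acot3: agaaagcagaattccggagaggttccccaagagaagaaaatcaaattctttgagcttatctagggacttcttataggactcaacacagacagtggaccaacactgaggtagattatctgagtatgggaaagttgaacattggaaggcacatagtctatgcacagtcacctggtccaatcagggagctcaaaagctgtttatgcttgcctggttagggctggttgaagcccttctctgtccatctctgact
Acot4: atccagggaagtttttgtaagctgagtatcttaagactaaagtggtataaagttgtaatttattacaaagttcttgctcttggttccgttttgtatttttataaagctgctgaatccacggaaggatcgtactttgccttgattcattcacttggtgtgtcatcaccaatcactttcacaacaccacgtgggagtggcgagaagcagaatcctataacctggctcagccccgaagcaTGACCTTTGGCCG
The letters AGGTCA, or TGACCT on the other strand, were in neither the Acot1 nor the Acot3 window, and 14.02% of 32851 RefSeq promoters of the same length hold them. Acot4 has 1 direct repeat with 2 mismatches, TGACCTTTGGCCG, whose TGACCT is a full match, in the 13 bases that end at the start site. Up to 2 mismatches were met in 3.24% of promoters and the exact direct repeat in 0.0335%. A match of letters is a description and not a measured binding site. Only 2 of the 4 members had an entry, and Cyp4a10 and Cyp4a14 are named without sequence.

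The estimated counts per library, pre-mRNA and mRNA together, were 17.5 to 25.3 M in CryKO and 17.4 to 26.7 M in WT for CA, 43.4 to 62.5 M and 44.4 to 62.1 M for NA, and 16.6 to 23.3 M and 7.07 to 15.3 M for CT, where the genotypes did not overlap in depth. Hepatocyte markers in CAE summed to 80937 to 132761 CPM (counts scaled to a common library size) in CryKO and 68814 to 120349 CPM in WT, with 19 of the 20 listed genes measured. Cry1 had 3.65 to 6.19 CPM in CryKO and 3.61 to 30.1 CPM in WT in CAE (log2 fold change -1.38 ± 0.28, adjusted p = 0.000668), and Cry2 6.41 to 10.5 and 10.9 to 28.5 CPM (-1.06 ± 0.11, adjusted p = 3.55e-07). In NAE both were higher in CryKO, by 1.50 and 0.58 on the log2 scale, so that RNA of both genes was still read in the knockout. Of the WT mRNA libraries, ZT4 replicate 1 had the lowest mean correlation with the others in all 5 populations (0.930 in CAE, against a median of 0.951), and in CAE of CryKO it was ZT12 replicate 2 (0.933, against 0.967). The values that touch the members without these libraries are given with the comparison.

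Per length of transcript, Cyp4a10 was the most abundant of the 4 in the cytoplasm of CryKO livers. It had 265, 525 and 1022 CPM in CAE as the lowest, median and highest of 12 CryKO livers, against 3.41, 17.9 and 83.1 CPM in 12 WT livers. Every CryKO liver lay above every WT liver, a separation that 0.574% of the 11316 genes tested in CAE showed. The log2 fold change of CryKO over WT was 4.62 ± 0.39 (SE), about 24.6-fold. Its median was 249.7 RPKM (CPM divided by transcript length in kilobases) in CryKO, rank 327 of 12154 genes, and 8.58 RPKM in WT, rank 4350. In the nucleus, the CryKO livers ranged over 175, 618 and 2664 CPM of NAE and the WT livers over 12.7, 52.4 and 165 CPM, again without overlap, where 0.211% of genes showed that. Nuclear pre-mRNA of Cyp4a10 had 138, 1389 and 9027 CPM of NTI in CryKO and 5.61, 53.5 and 149 CPM in WT. There the CryKO liver with 138 CPM, ZT20 replicate 2, lay below the highest WT liver while the other 11 lay above it, and 4.03% of genes were without overlap in NTI.

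Cyp4a14 had the largest fold difference of the 4 in CAE, NAE, NTI and UTE. It had 37.6, 223 and 878 CPM in CAE of CryKO livers, against 0.86, 3.19 and 45.6 CPM in WT livers. The groups overlapped through a single CryKO liver, ZT4 replicate 1 at 37.6 CPM, and a WT liver, ZT12 replicate 1 at 45.6 CPM. The log2 fold change of 5.63 ± 0.65 was rank 2 of 11316 genes in CAE. In NAE it had 105.5, 615 and 3493 CPM in CryKO and 0.752, 9.10 and 72.4 CPM in WT, with no overlap and a log2 fold change of 6.11 ± 0.79, rank 1 of 11850 genes. In NTI it had 105.5, 765 and 6865 CPM in CryKO and 2.17, 7.66 and 94.8 CPM in WT, with no overlap and 7.05 ± 0.996, rank 1 of 11155. Since the genes were chosen on this contrast, the ranks describe the choice. Its median per length in CAE was 89.2 RPKM in CryKO (rank 774) and 1.28 RPKM in WT (rank 8807).

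Acot1 and Acot3 were less abundant per length in CryKO livers, and their genotypes overlapped in every measure. Acot1, the cytosolic thioesterase, had 7.66, 21.7 and 81.7 CPM in CAE of CryKO livers and 1.12, 7.58 and 15.3 CPM in WT livers, and 7 of 12 CryKO livers lay above the highest WT liver. Its log2 fold change was 1.76 ± 0.38 in CAE, 1.56 ± 0.39 in NAE and 2.40 ± 0.49 in NTI. Acot3, the peroxisomal one, had 3.36, 12.9 and 102.7 CPM in CAE of CryKO livers and 0.377, 1.43 and 18.7 CPM in WT livers. Here 4 of 12 CryKO livers lay above the highest WT liver, and 9 of 12 WT livers below the lowest CryKO liver. The log2 fold change of Acot3 was 3.20 ± 0.55 in CAE and 3.72 ± 0.63 in NAE. Its pre-mRNA was listed at 0 in NTI of 3 CryKO and 8 WT livers and did not pass the filter there. In RPKM of CAE the order of the medians was Cyp4a10, Cyp4a14, Acot1 and Acot3 in CryKO and Acot1, Cyp4a10, Cyp4a14 and Acot3 in WT. The livers of neighbouring genes in these orders overlapped, and the place of Acot1 rests on the short transcripts given its counts in CAE (below).

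**Figure D1:**
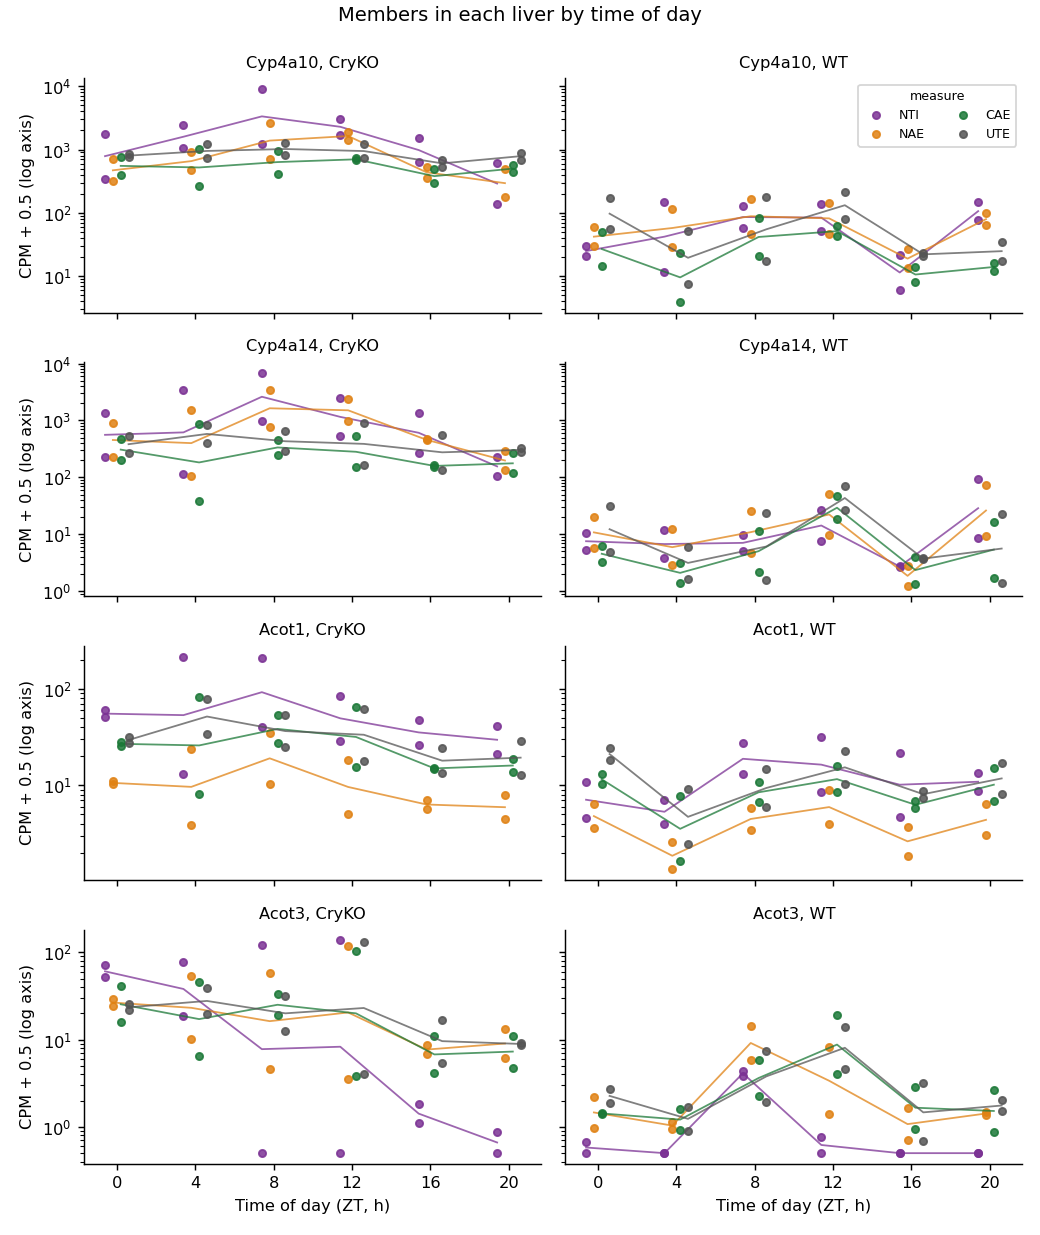
CPM plus 0.5 on a log axis against time of day for the 4 genes (rows), CryKO left and WT right. Each point is 1 liver and lines join the means of log values of the 2 livers per time, in nuclear pre-mRNA (NTI), nuclear mRNA (NAE), cytoplasmic mRNA (CAE) and whole tissue mRNA (UTE). Cyp4a10 in CAE runs from 265 to 1022 CPM in CryKO and from 3.41 to 83.1 CPM in WT.

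The genes were chosen on their levels in these populations, so the values in the other measures describe the choice too. Of the 40 pairs of gene and measure 34 passed the filter on low counts, some of them through the CryKO livers, since pre-mRNA of Cyp4a14 in CT was listed at 0 in 7 WT livers. In UTE the log2 fold changes were 3.97 ± 0.45 for Cyp4a10, 5.30 ± 0.66 for Cyp4a14, 1.50 ± 0.35 for Acot1 and 3.23 ± 0.50 for Acot3. Cyp4a10 and Cyp4a14 in UTE did not overlap between genotypes, as 1.25% of genes did not. Both were also without overlap in NTE, the spliced RNA of nuclear total RNA, where 2.11% of genes were so. In CTE, its cytoplasmic counterpart, Cyp4a10 was without overlap, as 1.03% of genes were, and 1 CryKO liver of Cyp4a14 lay below the highest WT liver. A bulk sample cannot tell fewer cells of a type from less RNA per cell. Without CryKO ZT12 replicate 2 the log2 fold changes in CAE were 4.69, 5.77, 1.60 and 3.08 for Cyp4a10, Cyp4a14, Acot1 and Acot3, and without WT ZT4 replicate 1 they were 4.47, 5.41, 1.57 and 3.10. Leaving out CryKO ZT4 replicate 2 gave 4.41, 5.12, 1.39 and 2.89, the lowest values in CAE of all livers left out in turn.

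**Figure D2:**
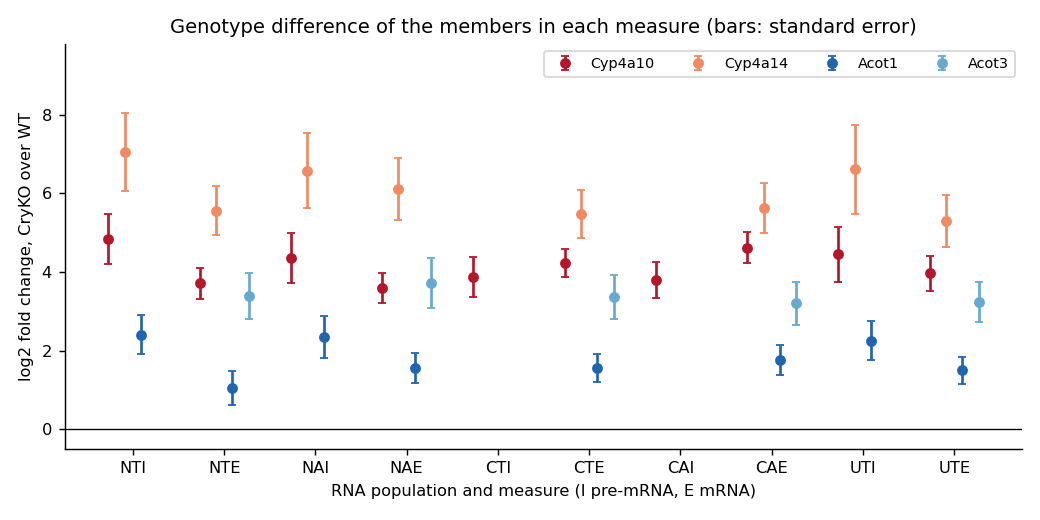
Log2 fold change of CryKO over WT (vertical axis, points with standard errors, 12 livers per genotype, time of day in the model) for each gene in the 10 measures of pre-mRNA (I) and mRNA (E). The plot shows 31 values; 6 that did not pass the filter and 3 with 6 or more livers of a genotype at 0 are left out. Cyp4a14 is the highest in each measure where it is drawn, with 7.05 in NTI and 5.63 in CAE.

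Ratios between genotypes were also taken at each time, from 2 livers each, as a description. They are ratios of the mean CPM of the 2 livers of a time, in which the higher liver weighs more. For Cyp4a14 in CAE the ratio of CryKO over WT was between 10.6 at ZT12 and 257 at ZT4. The ratio of Cyp4a10 was between 13.4 at ZT8 and 49.1 at ZT4, that of Acot3 between 4.77 at ZT12 and 33.7 at ZT4, and that of Acot1 between 1.50 at ZT20 and 10.7 at ZT4. All 4 genes had their highest ratio in CAE at ZT4, where WT ZT4 replicate 1, the library with the lowest correlation, had 3.41 CPM of Cyp4a10 and 22.8 CPM was read in replicate 2. Both CryKO livers lay above both WT livers of the same time at 6 of 6 times for Cyp4a10 and for Cyp4a14, at 5 for Acot3 and at 4 for Acot1.

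Livers of the same genotype and time differed widely. In CAE of CryKO at ZT4, Cyp4a14 had 37.6 CPM in replicate 1 and 878 CPM in replicate 2, and Acot1 had 7.66 and 81.7 CPM. At ZT12 Acot3 had 3.36 CPM in replicate 1 and 102.7 CPM in replicate 2 of CryKO, a 30.5-fold gap, and in UTE of the same label 3.53 and 131 CPM. The SD of log2 values over the 12 CryKO livers in CAE was 0.63 for Cyp4a10, 1.20 for Cyp4a14, 1.01 for Acot1 and 1.53 for Acot3, against a median of 0.27 over 8218 genes. The SD of Acot3 was exceeded by 11 of these genes and that of Cyp4a14 by 38. Over WT livers in CAE the SDs were 1.28 for Cyp4a10, 1.65 for Cyp4a14 and 0.87 for Acot1, against a median of 0.33, so that Acot1 was the tighter one in WT. For Cyp4a10 in UTE the CryKO livers were the tighter ones, with an SD of 0.39 over CryKO livers and 1.55 over WT livers. These SDs include any change with time of day.

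The levels of several pairs of the 4 genes correlated from liver to liver within a genotype. Of 24 relations, 6 pairs in NAE and CAE of each genotype, 11 had an adjusted p under 0.05 for Pearson's r, namely 5 in CAE and 3 in NAE of CryKO livers and 2 in CAE and 1 in NAE of WT livers. In CAE of CryKO livers the log2 levels of Cyp4a14 and Acot1 had Pearson's r = 0.89 and Spearman's rho = 0.78 (n = 12 livers, permutation p = 0.0001 and 0.00449, adjusted p = 0.00168 and 0.018 over 24 relations). Cyp4a14 and Acot3 had r = 0.80 and rho = 0.91 (permutation p = 0.00154 and 0.00014, adjusted 0.00528 and 0.00288). Within a time, the liver with more Cyp4a14 had more Acot3 at 6 of 6 times. That count was 4 of 6 for Cyp4a14 with Acot1 and for Cyp4a10 with Cyp4a14 in CAE of CryKO. For Cyp4a10 with Cyp4a14 in CAE of WT it was 6 of 6. Without the 2 livers farthest from the median of Cyp4a14, r was 0.80 with Acot1 and 0.93 with Acot3. Cyp4a10 and Cyp4a14 had r = 0.81 and rho = 0.69 in CryKO (permutation p = 0.00098 and 0.0167, adjusted 0.0047 and 0.0403; 0.64 without 2 livers) and r = 0.76 and rho = 0.78 in WT (permutation p = 0.00398 and 0.00436, adjusted 0.0119 and 0.018; 0.75 without 2 livers). In NAE this pair had r = 0.86 in CryKO (permutation p = 0.0003, adjusted 0.0024; 0.75 without 2 livers) and 0.89 in WT (0.00014, adjusted 0.00168; 0.86 without 2 livers), with rho = 0.90 and 0.88. Cyp4a10 and Acot3 did not pass in any of them, with r = 0.52 in CAE and 0.32 in NAE of CryKO (permutation p = 0.0866 and 0.304, adjusted 0.111 and 0.304). In CAE of WT livers Cyp4a14 and Acot3 had r = 0.51 and rho = 0.15 (permutation p = 0.0882 and 0.638, adjusted 0.111 and 0.638), and r was -0.12 without the 2 farthest livers, so that relation rested on them. Whether the correlations differ between genotypes was not tested. The permutations mixed livers of all times, so any change with time of day that 2 genes share is part of r and p. The points share their library, and Acot1 and Acot3 share part of their sequence (below).

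**Figure D3:**
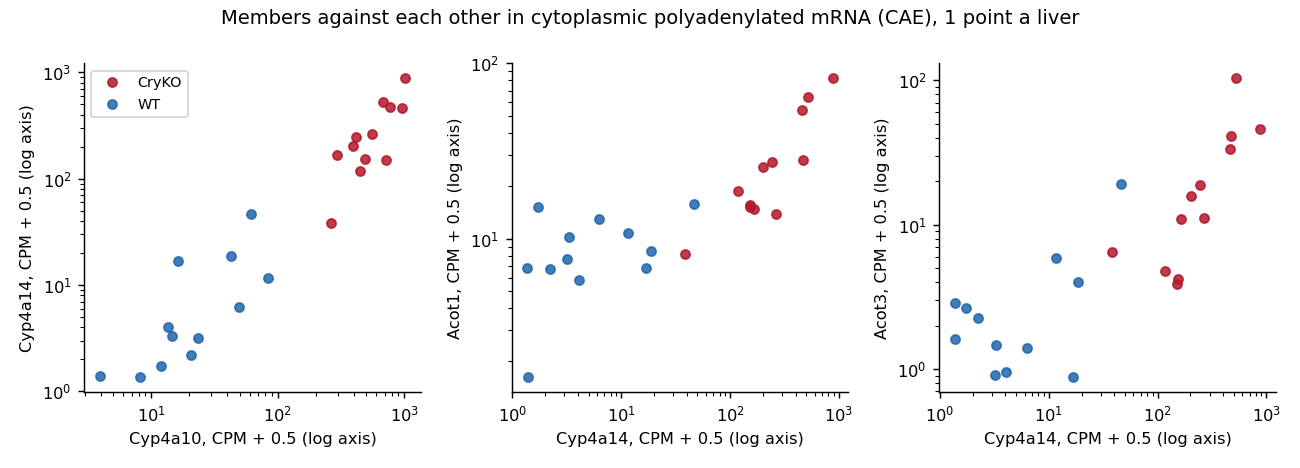
Levels of Cyp4a14 against Cyp4a10, and of Acot1 and Acot3 against Cyp4a14, in cytoplasmic polyadenylated mRNA (CAE), as CPM plus 0.5 on log axes with 1 point a liver, 12 per genotype. Within CryKO livers the points rise together (r = 0.81, 0.89 and 0.80), and in the first panel the WT points do too (r = 0.76).

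The level of a gene in one population did not always follow its level in another for the same liver label. Cyp4a10 in CryKO had r = 0.98 between CAE and CTE and 0.88 between NTI and NAE, but 0.43 between NAE and CAE (log2 levels, 12 labels each). For Acot1 the value between NAE and CAE was 0.94 in CryKO and 0.86 in WT. At ZT0 of CryKO, Cyp4a10 had 703 CPM of NAE in replicate 1 and 313 CPM in replicate 2, but 397 and 767 CPM of CAE. Over 7886 genes the differences between the replicates of ZT0 had r = -0.25 between NAE and CAE in CryKO, where the other times had 0.17 to 0.64 and WT 0.22 to 0.63. So at ZT0 the replicate numbers of CryKO did not go together between these populations, and the values per liver below use them as labelled.

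A rhythm of 24 h was tested in each genotype, since the members were not chosen on time of day. No member passed the threshold in NTI, NAE, CAE or UTE of either genotype in edgeR's quasi-likelihood test (adjusted p under 0.05). The share of all genes called in CryKO was 0.0270% in NTI, 0.0169% in NAE, 0% in CAE and 0.0512% in UTE, against 0.563%, 2.25%, 2.91% and 10.7% in WT. In NAE of CryKO livers 3 members had an unadjusted p under 0.05, as 12.2% of genes had, namely Cyp4a10, Cyp4a14 and Acot1. In NTI these were 2 (Cyp4a10 and Cyp4a14; 11.3% of genes), in UTE 1 (Acot1; 12.4%) and in CAE 0 (6.47%). Cyp4a10 had a fitted log2 range from trough to peak of 2.42 with a peak at ZT9.0 in edgeR's fit (adjusted p = 0.203), and DESeq2 called it (adjusted p = 0.00131, with 296 genes called). The fitted peaks of all 4 genes in CryKO lay between ZT5.5 and ZT9.0 in NTI, NAE, CAE and UTE, and Cyp4a10 had a range of 3.13 in NTI, 2.42 in NAE and 0.67 in CAE. In WT livers the gene nearest to the threshold in edgeR's test was Acot3 in CAE, with a range of 3.50 and a peak at ZT11.7 (adjusted p = 0.0752). DESeq2 called it there (adjusted p = 0.00252, with 963 genes called) and in NAE (adjusted p = 0.0203). WT had 1 member with an unadjusted p under 0.05 in NAE, in CAE and in UTE, Acot3 each time, where 16.5% (NAE), 19.9% (CAE) and 29.8% (UTE) of genes had one, and 0 in NTI (11.7%).

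The curves were not shown to differ between genotypes. The interaction of genotype with the 24 h curve was past the threshold for no member, with a lowest adjusted p of 0.445, for Cyp4a14 in CAE, while 0.725% of genes were called in CAE, 0.700% in NAE, 0.359% in NTI and 1.88% in UTE. One member, Cyp4a14 in NTI, had an unadjusted p under 0.05, as 6.52% of genes had (adjusted p = 0.528 in edgeR), and DESeq2 called none of the 4. The fitted difference of curves of Cyp4a14 in NTI had a log2 range of 5.58 and did not pass. In NTI of CryKO its 2 livers of a time were up to 29.9-fold apart, at ZT4. Why the difference did not pass was not tested.

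Nucleus and cytoplasm were then compared within each genotype, first in a fit without a term for the liver. Acot1 was lower in the nucleus, by a log2 ratio of NAE over CAE of -2.47 ± 0.42 in CryKO (adjusted p = 4.88e-06) and -2.19 ± 0.34 in WT (adjusted p = 1.64e-06). It was below 0 in 12 of 12 livers of each genotype, with -2.85 to -1.70 in CryKO and -2.76 to -0.93 in WT. As background, 41.8% of genes were lower and 45.2% higher in the nucleus in CryKO, against 39.2% and 45.6% in WT, so 1 of 4 members called is no more than the share of all genes. Acot3 had -0.89 ± 0.61 in CryKO (adjusted p = 0.169) and -1.17 ± 0.69 in WT (adjusted p = 0.116), and it lay below 0 in 12 of 12 CryKO livers and 9 of 12 WT livers. With the liver as a block, since the WT libraries of a label come from the same mouse, Acot3 was called in WT (-1.27 ± 0.34, adjusted p = 0.00212). Without WT ZT8 replicate 2 it was called as well (-1.70, adjusted p = 0.0246). The same block in CryKO, whose numbers did not go together at ZT0, called Acot3 (-0.98 ± 0.21, adjusted p = 0.000432) and Cyp4a10 (-0.73 ± 0.26, adjusted p = 0.0158). As background, the liver block called 10445 of 11763 genes in CryKO and 10285 of 11775 in WT. Without a block the omega-hydroxylases were not past the threshold, with Cyp4a10 at -0.47 ± 0.35 in CryKO (adjusted p = 0.201) and 0.28 ± 0.44 in WT (0.561) and Cyp4a14 at 0.60 ± 0.51 (0.263) and -0.06 ± 0.68 (0.935). Cyp4a14 lay above 0 in 9 of 12 CryKO livers and 7 of 12 WT livers, and Cyp4a10 in 3 and 8. The ratios are relative to the library, so a value of 0 does not mean equal numbers of molecules.

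**Figure D4:**
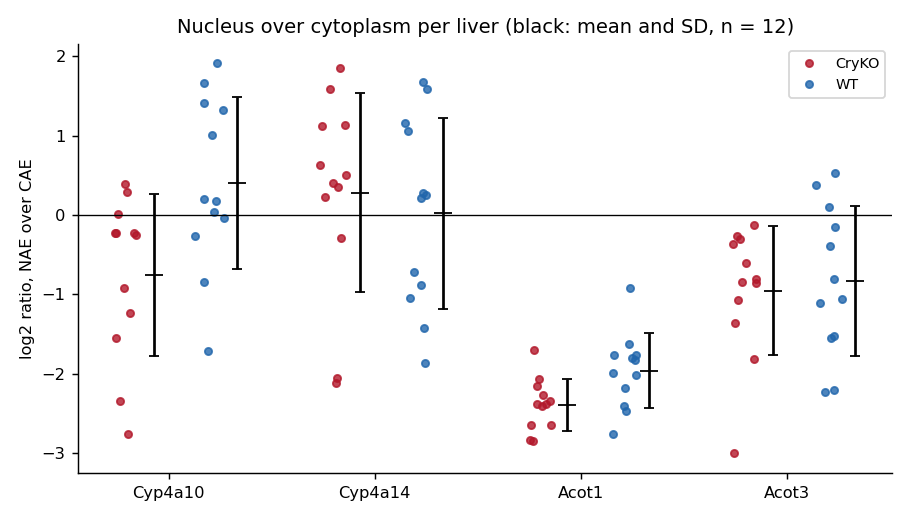
Log2 ratio of nuclear (NAE) over cytoplasmic (CAE) polyadenylated mRNA per liver label, CryKO left of WT for each gene, with the mean and SD of 12 livers in black. Acot1 lies below 0 in every liver of both genotypes (-2.39 ± 0.33 in CryKO, -1.96 ± 0.47 in WT), and the other 3 genes spread over a wider range.

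The transcripts that took the counts of the members were compared as shares of the summed counts, with no test. Cyp4a10 has 2 transcripts in the table, of 2109 and 2052 bases, and the longer took 84.1% of its CAE counts in CryKO and 78.3% in WT. In NTI the shorter one took 96.4% of the pre-mRNA counts in CryKO and 80.3% in WT, with 91.1% to 99.3% in single CryKO livers and 13.5% to 99.8% in single WT livers. Acot1 was carried in CAE by short transcripts of 622 bases (53.95% in CryKO, 62.2% in WT) and 801 bases (42.5% and 32.9%), while the one of 2272 bases took 3.51% and 4.91%. In the ribosome-depleted RNA that longest transcript took more, 29.8% in CryKO and 47.02% in WT in UTE and 30.8% and 47.97% in CTE, where it was the leading one in WT only. Acot3 was split between a transcript of 1854 bases (60.1% in CryKO, 61.8% in WT) and one of 3431 bases (39.4% and 37.7%). Near-identical copies limit some of these values. Of the 31-base words of Cyp4a10, 36.5% also occur in Cyp4a32 and 26.5% in Cyp4a31, and of those of Acot1, 27.3% occur in Acot2 and 11.2% in Acot3. Cyp4a14 shares 0.527% of its words with any other gene and Acot3 8.95%, so their levels depend least on how reads were divided.

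The relatives of the members were tested between genotypes, since the rule did not name them. The gene lists used here and below were still chosen with earlier results of these data known, so the tests are not independent of those results. Of 11 other Cyp4 genes tested in CAE, 5 were higher and 1 was lower in CryKO, with a median log2 fold change of 0.58 against 0.02 over all genes; of all genes 17.4% were higher and 18.7% lower. Cyp4a31 had 4.77 to 26.7 CPM in CryKO and 0.562 to 6.85 CPM in WT (2.38 ± 0.37, adjusted p = 7.85e-05), and Cyp4a32 9.30 to 31.7 and 2.38 to 17.7 CPM (1.25 ± 0.23, adjusted p = 0.000279). Both share many words with Cyp4a10, so part of their reads may be divided with it. Cyp4f15, which shares no 31-base word with Cyp4a10 or Cyp4a14, had 42.6 to 78.5 CPM in CryKO and 25.3 to 59.9 CPM in WT (0.78 ± 0.13, adjusted p = 9.41e-05). The male-biased Cyp4a12b rose in CAE (1.25 ± 0.30, adjusted p = 0.00293). It was not past the threshold in NAE (-0.21 ± 0.33, adjusted p = 0.708) or UTE (0.19 ± 0.22, adjusted p = 0.480). Its near copy Cyp4a12a had 0.71 ± 0.30 (adjusted p = 0.0664) in CAE and fell in NAE by 0.79 on the log2 scale (adjusted p = 0.0486). Of the 31-base words of Cyp4a12a, 62.2% also occur in Cyp4a12b, so part of their reads may be divided between them.

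Among the other Acot and Acnat genes, which hydrolyse acyl-CoA or transfer its acyl group, 4 of 13 were higher and 3 lower in CAE, with a median of 0.15. Acot4, a peroxisomal thioesterase between Acot1 and Acot3, had 40.1 to 131 CPM in CryKO and 13.04 to 63.02 CPM in WT (1.58 ± 0.22, adjusted p = 3.04e-05), and 8 of 12 CryKO livers lay above the highest WT liver. Acot2, the mitochondrial one, had 1.20 to 12.4 and 0.769 to 3.20 CPM (1.34 ± 0.27, adjusted p = 0.000807) and shares words with Acot1. Acnat2, an acyltransferase of peroxisomes, rose by 1.88 ± 0.33 (adjusted p = 0.000209). Acot12 rose by 0.31 ± 0.12 (adjusted p = 0.0403), a call that was lost in 14 of 24 cases of a liver left out (adjusted p up to 0.0865). Acot11 fell by 1.49 on the log2 scale (adjusted p = 2.45e-05), with 1.13 to 4.68 CPM in CryKO and 3.64 to 11.2 CPM in WT. Acot5 and Acot6 were not analysed here.

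Other PPAR alpha targets were then tested. Of 85 genes in 4 lists of such targets tested in CAE, 27 were higher and 8 lower in CryKO, with a median log2 fold change of 0.22. A fold change above 1 on the log2 scale was found for 7 of them (8.24%), against 2.17% of all genes, and the highest was Krt23 at 2.19. Counted in either direction, 11 of the 85 targets were beyond 1 on the log2 scale, against 586 of all 11316 genes. Of 22 genes of mitochondrial oxidation and ketogenesis 8 rose and 0 fell (median 0.27), among them Cpt1a, the gate of fatty acids into mitochondria (0.64 ± 0.17, adjusted p = 0.00564) and Acsl1 (0.84 ± 0.19, adjusted p = 0.00168). Of 21 peroxisomal genes 7 rose and 2 fell (median 0.13). Ehhadh had 242 to 598 CPM in CryKO and 83.7 to 339 CPM in WT (0.85 ± 0.18, adjusted p = 0.00103), Acaa1b rose by 1.10 ± 0.23 (adjusted p = 0.00108), and Slc27a2 by 0.95 ± 0.16 (adjusted p = 0.000114). Pex11a, a target that governs peroxisome division, had -0.06 ± 0.18 (adjusted p = 0.811).

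Of the lipid uptake and storage genes 4 of 22 were higher and 4 lower (median 0.19), close to the shares of all genes. Among those higher in CAE were Acsl3 (0.93 ± 0.16, adjusted p = 0.000161) and Slc27a1 (1.35 ± 0.26, adjusted p = 0.000392). The lipase Lpl fell by 1.63 (adjusted p = 2.70e-06), the droplet protein gene Fitm1 by 2.06 (adjusted p = 5.16e-06) and the fatty acid binding protein gene Fabp1 by 0.80 (adjusted p = 0.0217) on the log2 scale. Plin2 had 0.26 ± 0.21 (adjusted p = 0.334) and Cd36 -0.12 ± 0.17 (adjusted p = 0.583) in CAE. Other populations differed from CAE for some of these genes. Cd36 was called higher in UTE (0.79 ± 0.17, adjusted p = 0.000616) and in NTI (0.81 ± 0.27, adjusted p = 0.0165). Fabp1 was not called in UTE (-0.29 ± 0.22, adjusted p = 0.273) or NAE (-0.70 ± 0.26, adjusted p = 0.0687). Of 20 secreted proteins, regulators and others 8 rose and 2 fell (median 0.31), with the lipase inhibitor Angptl4 at 0.81 ± 0.25 (adjusted p = 0.0149), the desaturase Fads2 at 1.41 ± 0.20 (adjusted p = 2.83e-05) and the bile acid enzyme Cyp8b1 at 1.99 ± 0.29 (adjusted p = 4.15e-05). Vnn1 had 0.31 ± 0.33 (adjusted p = 0.486). Fgf21 had at most 3.95 CPM in CryKO and 2.03 CPM in WT and did not pass the filter in CAE. Pdk4 was not analysed here.

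**Figure D5:**
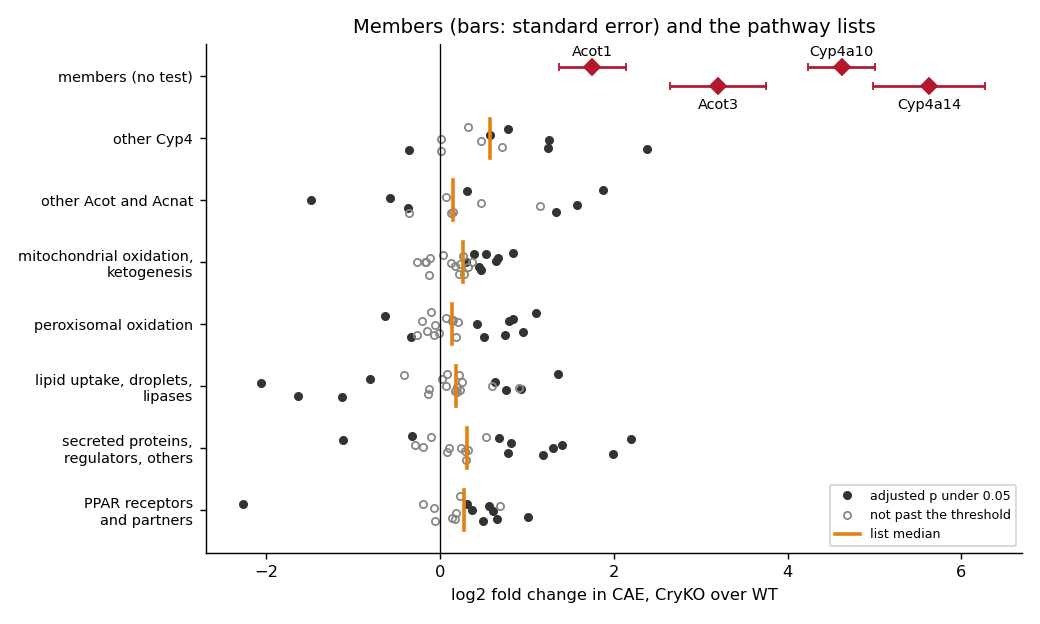
Log2 fold change of CryKO over WT in CAE (horizontal axis) for the 4 members (red, with standard errors, no test) and for the genes of 7 lists; filled points passed an adjusted p under 0.05, open ones did not, and bars mark the list medians. The members lie at 1.76 to 5.63, and the list medians at 0.13 to 0.58.

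Of the receptors and their partners 7 of 16 rose and 1 fell in CAE (median 0.28). Ppara itself had 20.0 to 65.99 CPM in CryKO and 9.97 to 64.1 CPM in WT (0.66 ± 0.20, adjusted p = 0.0138), and its partner Rxra rose by 0.56 ± 0.12 (adjusted p = 0.00142). In NAE Ppara had 0.24 (adjusted p = 0.566). Pparg, the adipogenic receptor, fell by 2.27 on the log2 scale (adjusted p = 3.53e-08) and had at most 2.17 CPM in CryKO, against 3.79 to 12.6 CPM in WT. Over all 7 lists 43 of 125 genes were higher and 13 lower in CAE, 23 and 10 of 127 in NAE, 48 and 22 of 127 in UTE, and 65 and 4 of 124 in NTI. The shares of all genes called higher and lower were 8.06% and 9.11% in NAE, 22.7% and 26.1% in UTE, and 48.9% and 3.65% in NTI.

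Those counts depend on the scaling. With TMM factors from pre-mRNA counts, 27 of the 124 list genes were higher and 15 lower in NTI, and the split over all genes was 1784 higher and 1706 lower, against 5451 and 407 with factors from mRNA. In CAE, scaling by library size alone, tried for the lists after the data were seen, moved the median of all genes to 0.36 and the split to 5482 higher and 590 lower, against 1973 and 2111. The 85 targets then had 57 higher and 3 lower and a median of 0.58, that is 0.21 above that of all genes, as with TMM (0.21). Cd36 (0.21) and Pex11a (0.29) turned positive without passing the threshold, Plin2 (0.64) and Cyp4a12a (1.08) were called higher, and Fabp1 (-0.41) was no longer called lower. The members had 5.00 (Cyp4a10), 6.01 (Cyp4a14), 2.15 (Acot1) and 3.56 (Acot3) under that scaling.

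The genes whose levels followed each member most closely in CAE, over 24 livers after the mean of each genotype was subtracted and among 8245 genes, are given as a description. Cyp4a10 was followed by Retsat (r = 0.82), Abcb4 (0.82), Pex19 (0.78), Bdh1 (0.77) and Vwa8 (0.76). Cyp4a14 was followed by Vnn1 (0.78), Eci2 (0.75), Mmadhc (0.72), Acadl (0.69) and Plekhb1 (0.69). Acot1 was followed by Pctp (0.85), Aldh3a2 (0.82), Hsdl2 (0.80), Acat1 (0.80) and Fabp2 (0.79), and Acot3 by Acot4 (0.88), Eci2 (0.77), Khdrbs3 (0.76), Wdr73 (0.75) and Abcd2 (0.74). Some of these genes differed between genotypes and others were not past the threshold. Vnn1, the closest to Cyp4a14, was not past the threshold between genotypes, and neither was Eci2 (0.15 ± 0.15, adjusted p = 0.453), while Retsat rose by 1.19 ± 0.20 (adjusted p = 0.000152) and Fabp2 fell by 1.13 on the log2 scale (adjusted p = 0.00125).

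Other gene groups were compared between genotypes in the same livers. Of all genes, 17.4% were called higher and 18.7% lower in CAE, 8.06% and 9.11% in NAE, and 22.7% and 26.1% in UTE. Of 34 male-biased liver genes 4 were higher and 13 lower in CryKO in CAE, and their sum was 16415 to 124951 CPM in CryKO and 37675 to 227469 CPM in WT. Of 22 female-biased genes 15 were higher and 4 lower, with sums of 749 to 1856 and 529 to 1315 CPM. Y-linked transcripts were present in every liver, with Ddx3y at 19.4 to 59.7 CPM in CryKO and 18.6 to 84.2 CPM in WT. The Kupffer cell and macrophage list had 14 of 14 genes measured, 0 of them higher and 6 lower in CAE. It summed to 361 to 725 CPM in CryKO and 375 to 1566 CPM in WT. In UTE 1 gene of this list was higher and 0 were lower, with sums of 380 to 780 and 368 to 1068 CPM. Of the stellate cell and fibroblast list 0 of 11 genes were higher and 6 lower in CAE (7 lower in NAE). The sums in CAE were 132 to 183 and 129 to 250.3 CPM. In UTE 2 of these genes were higher and 3 lower, with sums of 387 to 661 and 289 to 617 CPM. Of the sinusoidal endothelial list 2 of 13 were higher and 1 lower in CAE, but 11 higher and 0 lower in UTE, where the sums were 945 to 1217 CPM in CryKO and 626 to 985 CPM in WT. The adipocyte list, with 3 of 9 genes measured, summed to 13.2 to 19.6 and 17.7 to 30.9 CPM. The part of these groups in the members' difference was not tested. Genotype and any difference in handling between the CryKO and the WT livers cannot be told apart.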

How the data were processed

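RNA-seq of 120 libraries from mouse liver (60 CryKO, 60 WT) was used. The authors deposited estimated counts per gene and transcript from kallisto 0.46.0 on a joint index of pre-mRNA and mRNA of GRCm38, without normalization. Reads that fit several transcripts are shared out by kallisto, which matters for near-identical copies. Repeated rows were merged (12383 rows to 12252). Counts were rounded, scaled with TMM factors from mRNA counts and tested in edgeR 4.0.16 (R 4.3.3; quasi-likelihood, Benjamini-Hochberg over all genes, adjusted p under 0.05), for genes with at least 10 counts in 6 of 12 or 12 of 24 libraries. Fits used a cosine and a sine of 24 h, their interaction with genotype, genotype with time as a factor, or NAE over CAE. DESeq2 1.42.0, other scalings, no filter, replicate and liver blocks and each liver left out were alternatives. CPM use the same scaling, logs add 0.5, and RPKM divide by transcript length. Correlations used 100000 permutations, two-sided. Scripts were tested on simulated data. The members and gene lists were chosen with earlier results of these data known. Of the lists, Ppara, Cpt1a and other fixed names were given whether called or not (2 of them are not reported here), with up to 3 genes per list of the smallest p among those called in CAE at 5 CPM or more, and 5 alike genes per member; Krt23 was named after its value was seen. The main fit of NAE over CAE had no term for the liver and so left the pairing out. In the liver block, an alternative, libraries of the same label were taken as paired. In WT the replicate differences of NAE and CAE correlated at every time (0.22 to 0.63) and the methods give 12 WT mice.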

Additional observations from a re-analysis of the deposited data

Results flagged for a closer look

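Pex11a, whose product governs peroxisome division, had a 24 h curve that differed between CryKO and WT livers in edgeR's interaction test, with a log2 range of the difference of 1.71 in CAE (adjusted p = 0.0369) and 1.47 in UTE (adjusted p = 0.0483), in a gene whose mean level did not pass the threshold between genotypes.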

How the results depend on the processing

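The genotype values of the members kept their sign under the other scalings, the replicate block and each liver left out. The members were chosen on this difference, so the sign describes the choice. These values were not compared under DESeq2 or without the filter. DESeq2 called 1 member rhythmic in NAE of CryKO, 1 in NAE of WT and 1 in CAE of WT, where edgeR called 0; over all genes it called 71 in CAE of CryKO against 0, and 963 in CAE of WT against 329. With a liver block, 3 members in CryKO (Acot1, Acot3, Cyp4a10) and 2 in WT differed between nucleus and cytoplasm, against 1 each, and Cyp4a14 in WT was at 0.00313. Most genes were called under that block, 10445 of 11763 in CryKO and 10285 of 11775 in WT. The CryKO numbers do not pair at ZT0 (r = -0.25). The plain replicate block, whose numbers did not go together across times (median r of 0.03 in CAE), changed no call of a member and gave 212 rhythmic genes in CAE of WT. TMM on pre-mRNA counts gave 27 list genes higher and 15 lower in NTI. Scaling by library size alone, added after the data were seen, gave 88 higher and 5 lower in CAE, with Cd36 at 0.21 and Pex11a at 0.29. The cause of these changes was not tested. With a liver left out, the members called in WT ranged over 1 to 2, list genes lower in NAE over 6 to 16 (6 without either CryKO ZT12 liver, 16 without WT ZT4 replicate 1), Cyp4a14 NAE over CAE in WT over -0.44 to 0.33, Pex11a over -0.22 to 0.00313 and Vnn1 over -0.038 to 0.46. Cyp4a12a gained a call in 4 of 24 cases. Acot1 and Acot3 pre-mRNA in the cytoplasm was too sparse to test.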
